A study of Mus musculus with 8 samples.

Results

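The 9 genes described here encode the mouse MHC class II molecules, the proteins that load them with peptide, and their transactivator: H2-Aa, H2-Ab1, H2-Eb1, Cd74, Ciita, H2-DMa, H2-DMb1, H2-DMb2 and H2-Oa. They were chosen by symbol, and all 9 were found among the 31053 genes of the matrices. The data were droplet single-cell RNA sequencing of CD45+ cells, that is, leukocytes and microglia, isolated with magnetic beads from the tumours of glioma-bearing mice (4 samples) and from the brains of normal mice (4 samples). The counts formed 1 pooled library per group with no map from cells to mice, so no difference between glioma and control could be tested. Every interval below is an exact 95% interval for counting error only. Strain, age, sex and the tumour line were not given in the sources used here, and none of the 8 samples was labelled with a transgene or a drug.

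After filtering, the glioma library held 11049 cells with a median of 11332 unique molecular identifiers (UMIs), and the control library held 13680 cells with a median of 6842. The labels name a kit in either of 2 versions without saying which library used which, so a difference of kit cannot be told apart from glioma against control in depth or in any ratio between the libraries. Cells were placed in classes by raw UMIs of marker genes, none of which was among the 9. Macrophages were the largest glioma class (5729 cells), with 500 dendritic cells and 38 microglia. Microglia were the largest control class (11736 cells), with 140 macrophages, 158 border-associated macrophages and 3 dendritic cells. Ptprc, which encodes CD45, stood at 341 CPM (UMIs of a gene per 1000000 UMIs of the class) in glioma macrophages and 253 CPM in control microglia. The glioma library also held 94 cells of a keratin and Rhox5 class, and the control library held 109 endothelial and 191 erythroid cells. These cells are not antigen-presenting leukocytes, and levels of some of the 9 genes in them are given below for comparison. Passing cells shared 41 barcodes between the libraries.

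MHC class II molecules are pairs of an alpha and a beta chain that present peptides from endocytosed protein to CD4+ T cells. H2-Aa and H2-Ab1 encode the chains of I-A, and H2-Eb1 encodes the beta chain of I-E. Cd74 encodes the invariant chain, which occupies the peptide groove until proteases trim it. The H2-DM heterodimer (H2-DMa with H2-DMb1 or H2-DMb2) then exchanges the remaining fragment for peptide, and H2-O, of which H2-Oa encodes the alpha chain, restrains H2-DM. Ciita encodes the coactivator that binds no DNA itself but docks on factors at the X and Y boxes of class II promoters, and interferon gamma is its classical inducer in macrophages and microglia.

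RefSeq promoter windows of 300 bases (250 before the start and 50 after it, GRCm38.p6) were found for 6 of the 9 genes, all of them on chromosome 17. The 130 bases before the RefSeq start are shown for 5 of them, because the genes that follow different patterns below (H2-Aa and H2-Eb1, H2-DMb1 and H2-DMb2, H2-Oa) share the same box. Capitals mark TGATTGG, the core of the Y box, and AACNGATG, a stretch of the X box.
H2-Aa, chr17:34287824-34287953, minus strand: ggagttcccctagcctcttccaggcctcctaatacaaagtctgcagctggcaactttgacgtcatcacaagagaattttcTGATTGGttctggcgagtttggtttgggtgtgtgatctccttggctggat
H2-Eb1, chr17:34305737-34305866, plus strand: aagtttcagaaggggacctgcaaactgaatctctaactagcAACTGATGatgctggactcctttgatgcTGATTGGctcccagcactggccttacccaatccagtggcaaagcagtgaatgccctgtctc
H2-DMb1, chr17:34153061-34153190, plus strand: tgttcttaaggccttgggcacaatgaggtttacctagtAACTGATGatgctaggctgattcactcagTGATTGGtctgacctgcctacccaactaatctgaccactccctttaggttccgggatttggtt
H2-DMb2, chr17:34145119-34145248, plus strand: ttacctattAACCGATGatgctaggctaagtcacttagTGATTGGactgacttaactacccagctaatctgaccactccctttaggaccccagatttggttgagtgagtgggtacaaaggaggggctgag
H2-Oa, chr17:34092249-34092378, plus strand: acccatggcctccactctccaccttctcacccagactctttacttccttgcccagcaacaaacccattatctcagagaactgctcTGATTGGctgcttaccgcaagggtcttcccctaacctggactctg

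Of the 6 genes with a window 5 held TGATTGG, on the strand of the gene. These are the 5 shown, so a match in every sequence shown was set by that choice. TGATTGG began 50 bases before the start in H2-Aa, 61 in H2-Eb1, 63 in H2-DMb1, 92 in H2-DMb2 and 45 in H2-Oa. Of all 32851 promoter windows, 7.82% held it on either strand. AACNGATG stood upstream of it in H2-Eb1 (89 bases before the start), H2-DMb1 (92 bases) and H2-DMb2 (121 bases), against 2.32% of all windows. The windows with both motifs made up 0.186% of the total. These letters were in neither of the windows listed for H2-DMa. The motifs do not overlap, and a match describes sequence only.

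The genes lie in 3 places in GRCm38 by the GENCODE annotation. H2-Oa (chr17:34092340-34095234), H2-DMa (chr17:34119541-34139101), H2-DMb2 (chr17:34143307-34151555), H2-DMb1 (chr17:34153072-34160230), H2-Ab1 (chr17:34257689-34269419), H2-Aa (chr17:34282744-34287823, minus strand) and H2-Eb1 (chr17:34305867-34316674) are neighbours in the MHC. Ciita (chr16:10480059-10528418) and Cd74 (chr18:60803848-60812652) are elsewhere. The RefSeq starts used for the promoter windows lie downstream of the GENCODE starts for H2-DMa, H2-DMb1, H2-DMb2 and H2-Oa.

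Class II RNA was high in glioma dendritic cells, macrophages and B cells, and near 0 in most control microglia. H2-Aa stood at 8836 CPM in glioma Plet1/Ccl17 dendritic cells, 8169 CPM in Xcr1/Clec9a dendritic cells, 5120 CPM in macrophages and 3009 CPM in B cells of the tumour, against 94.7 CPM in control microglia. Cd74 ran in the same order, from 18441 and 18437 CPM in those dendritic states to 11578 CPM in glioma macrophages and 7751 CPM in glioma B cells, against 325 CPM in control microglia. Control macrophages, a class of 140 cells, were close to glioma macrophages in these sums, with 4827 CPM of H2-Aa and 13140 CPM of Cd74. The glioma B cell class held 25 cells and the control one 33, so their intervals are wide.

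**Figure D1:**
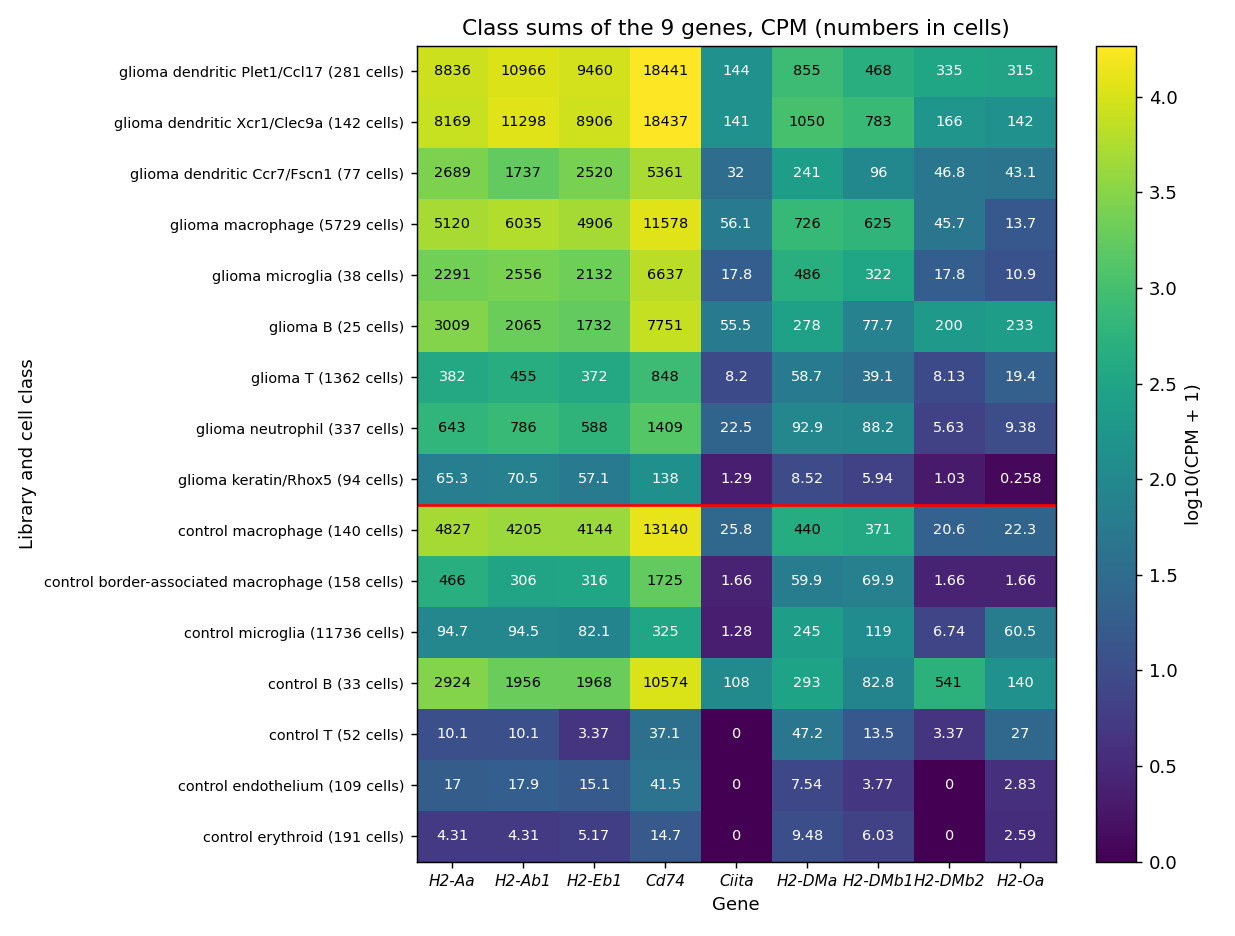
Each cell of the grid gives the CPM of a gene (columns) in the summed UMIs of a class (rows, glioma classes above the red line and control classes below it), coloured on a log10(CPM + 1) scale. H2-Aa stood between 2291 and 8836 CPM in the glioma dendritic, macrophage, microglia and B cell rows, against 94.7 CPM in control microglia, while H2-Oa was at 13.7 CPM in glioma macrophages and 60.5 CPM in control microglia.

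Glioma macrophages differed from control microglia in all 9 genes by at least 2-fold. The I-A and I-E chain genes stood at 5120 CPM (H2-Aa), 6035 CPM (H2-Ab1) and 4906 CPM (H2-Eb1) in glioma macrophages, against 94.7, 94.5 and 82.1 CPM in control microglia. Their log2 ratios were 5.76 (5.73 to 5.79) for H2-Aa, between 5.96 and 6.03 for H2-Ab1 and 5.90 (5.87 to 5.93) for H2-Eb1, and that of Cd74 was 5.16 (5.14 to 5.17). Ciita had 56.1 CPM in glioma macrophages and 1.28 CPM in control microglia, a log2 ratio of 5.45 (5.18 to 5.75). A set of 60 control microglia held 7058 of the 8017 UMIs of H2-Aa and 18699 of the 27506 UMIs of Cd74 in that class, but 28 of its 108 UMIs of Ciita. The remaining 11676 control microglia had 11.5 CPM of H2-Aa, 105 CPM of Cd74 and 0.956 CPM of Ciita, so the ratios to glioma macrophages depend on those 60 cells and by unequal amounts.

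The peptide-loading genes differed less. H2-DMa had 726 CPM in glioma macrophages and 245 CPM in control microglia, a log2 ratio of 1.57 (1.55 to 1.59). H2-DMb1 had 625 CPM in glioma macrophages and 119 CPM in control microglia (log2 ratio 2.39, 2.36 to 2.42). H2-DMb2 had the fewest UMIs of the DM genes in both, with 45.7 CPM in glioma macrophages and 6.74 CPM in control microglia (2.76, 2.63 to 2.89). H2-Oa went the other way, with 13.7 CPM in glioma macrophages and 60.5 CPM in control microglia (log2 ratio -2.14, -2.24 to -2.05). In all, 8 of 9 members were at least 2-fold higher, where 16.1% of 14446 genes were, and 1 was at least 2-fold lower, where 33.6% were. The median log2 ratio was 5.16 over the members and -0.39 over all counted genes. The 9 genes summed gave a log2 ratio of 4.82, with a range of 4.21 to 5.51 over 8 other ways of processing, the lowest with barcodes of several lineages kept and the highest with barcodes thinned to 1000 UMIs before gating, which left 225 glioma macrophages.

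**Figure D2:**
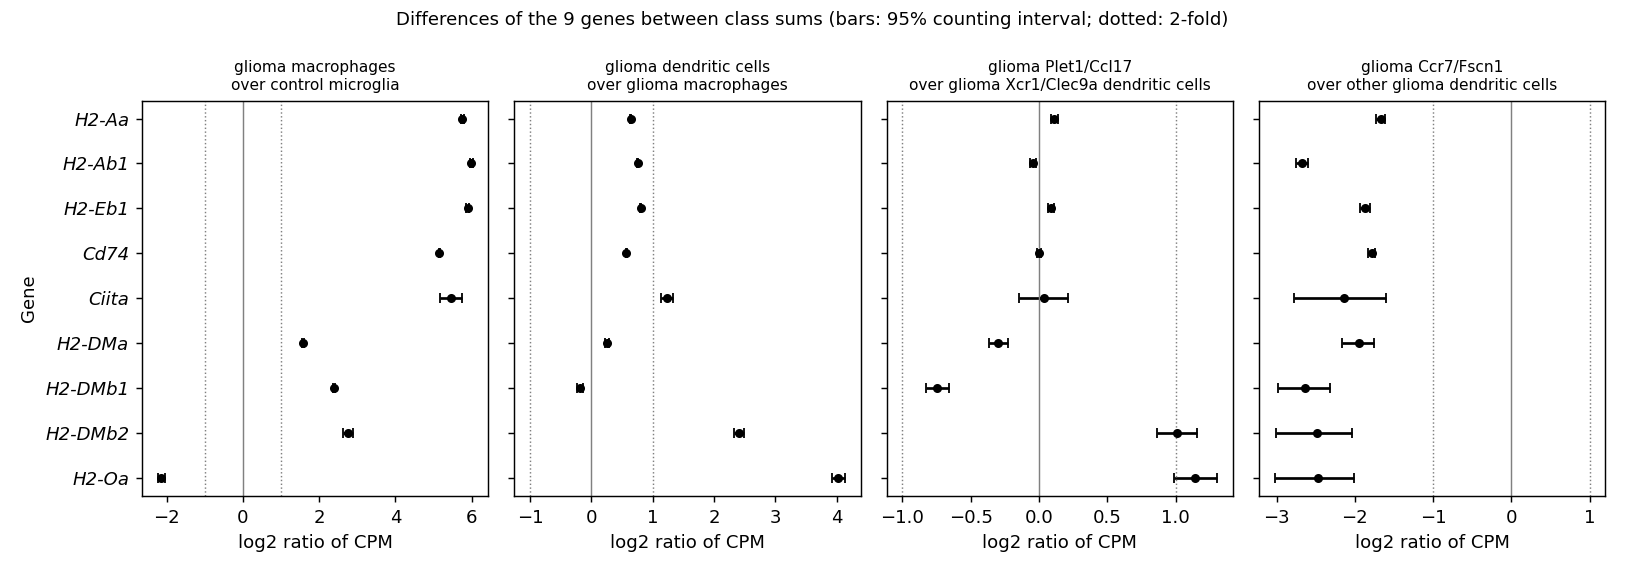
Points are log2 ratios of CPM between class sums for each gene, bars are 95% counting intervals and dotted lines mark 2-fold. H2-Oa lies at -2.14 for glioma macrophages over control microglia and at 4.03 for glioma dendritic cells over glioma macrophages, and all 9 genes lie left of -1 for the Ccr7/Fscn1 dendritic state.

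Class II chain RNA in control microglia was held by few cells, while H2-DM and H2-O RNA was also present in the rest. The median control microglia cell had 0 UMIs of H2-Aa, H2-Ab1, H2-Eb1 and Cd74 summed, and the 75th percentile was 1.84 per 10000 UMIs. A small set stood far above the rest: 60 of 11736 cells (0.511%, 0.390 to 0.658%) had at least 50 class II UMIs per 10000 and held 75.1% of the class II UMIs of the whole class. That limit was set after the distributions were seen and defines a range, not a cell type, and 40 cells lay between 25 and 100 per 10000.

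In those 60 cells H2-Aa stood at 7225 CPM, against 11.5 CPM in the other 11676 control microglia. Ciita had 28.7 CPM in the 60 cells and 0.956 CPM in the others, and H2-DMa had 587 CPM and 241 CPM in the same order. H2-Oa was level, at 60.4 CPM in the 60 cells and 60.5 CPM in the others. The 60 cells had less P2ry12, at 871 CPM against 2284 CPM in the others, and less Tmem119, at 648 CPM against 1469 CPM. Both genes are in the list that gated microglia, so microglia markers were required of every cell of the class. The 60 cells also carried macrophage RNA: Ccr2 stood at 94.2 CPM against 3.05 CPM, Ms4a7 at 94.2 CPM against 2.41 CPM and Apoe at 9481 CPM against 906 CPM. These markers were chosen after their values were seen. Whether these are single cells or droplets with a second cell was not tested, and none of the 60 barcodes was also among the passing cells of the glioma library.

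Among control classes H2-Oa and H2-DMa separated microglia from border-associated macrophages, the resident macrophages of the meninges and perivascular spaces. H2-Oa had 60.5 CPM in control microglia and 1.66 CPM in control border-associated macrophages, where it rested on 2 UMIs (log2 ratio 4.86, 3.33 to 8.23). H2-DMa had 245 CPM in microglia and 59.9 CPM in border-associated macrophages (2.02, 1.70 to 2.38). H2-DMb1 stayed within 2-fold, at 119 CPM in microglia and 69.9 CPM in border-associated macrophages (0.76, 0.46 to 1.09). The chain genes lay on the other side, with H2-Aa at 94.7 CPM in microglia and 466 CPM in border-associated macrophages (-2.30, -2.42 to -2.17) and Cd74 at 325 CPM and 1725 CPM (-2.41, -2.47 to -2.34). Few cells held this RNA in border-associated macrophages too: 17 of 158 (10.8%, 6.39 to 16.7%) were above 50 class II UMIs per 10000 and held 90.7% of the class II UMIs of the class, and the median cell had 1.19 per 10000. Without the cells above that limit, H2-Aa stood at 11.5 CPM in control microglia and 25.3 CPM (16.7 to 36.8) in border-associated macrophages. H2-DMb2 rested on 2 UMIs in border-associated macrophages as well (1.70, 0.16 to 5.07) and turned to -0.36 with barcodes thinned to 1000 UMIs. The counts were 3 of 9 members at least 2-fold higher in microglia, where 17.1% of genes were, and 4 lower, where 15.4% were. With barcodes of several lineages kept, the ratio of H2-DMa fell under 2-fold (0.96). Endothelial and erythroid cells of the same library had 2.83 and 2.59 CPM of H2-Oa and 7.54 and 9.48 CPM of H2-DMa, and free RNA of the control library had 25.2 CPM and 106 CPM, all below microglia.

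The interferon state of control microglia (65 cells with at least 5 UMIs of Ifit3, Ifit2 and Usp18 summed) was set against the remaining control microglia. H2-Aa stood at 701 CPM in that state, with a log2 ratio of 2.96 (2.82 to 3.10), and 5 of 9 members were at least 2-fold higher, where 15.9% of genes were. H2-DMb2, on 1 UMI in the state, was the only member at least 2-fold lower (-1.54, -7.43 to 0.36), where 5.87% of genes were. However, 3 of the 65 cells were above 50 class II UMIs per 10000, and they held 91.4% of the class II UMIs of the state. The median cell of the state had 1.22 class II UMIs per 10000.

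The immediate early state (at least 5 UMIs of Fos, Jun, Egr1 and Atf3, 8885 of 11736 control microglia) held 58 of the 60 cells of high class II. H2-Aa stood at 109.5 CPM in that state and 14.8 CPM in the other control microglia (log2 ratio 2.88, 2.68 to 3.10), and H2-Oa at 59.6 CPM and 65.2 CPM (-0.13, -0.24 to -0.02). Of the 9 members 5 were at least 2-fold higher, where 5.93% of genes were, and none was lower, where 4.8% were. The 58 cells held 77.3% of the class II UMIs of the state, and its cells were deeper, with a median of 7559 UMIs against 4448 in microglia of no state. In the Il1a, Tnf and Gpr84 state (4387 cells) Ciita was the 1 member at least 2-fold higher, at 1.96 CPM against 0.684 CPM (log2 ratio between 0.90 and 2.17), where 5.42% of genes were, and none was lower, where 5.69% were.

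The 38 glioma microglia fell into a low and a high range of class II. In 16 of them (42.1%, 26.3 to 59.2%) class II was above 50 UMIs per 10000, against 0.511% of control microglia. H2-Aa stood at 3941 CPM in the 16 cells and 169 CPM in the other 22. Ciita had 31.6 CPM in the 16 cells, where it was read in 37.5% of them, and 0 UMIs in the other 22, with an exact upper bound of 11.5 CPM. Glioma free RNA had 32.8 CPM of Ciita. The free RNA share of the 38 cells, estimated from T-cell genes, was 0.571%, a low estimate. The 16 cells had less P2ry12 (99.6 CPM against 187 CPM) and more Ccr2 (94.7 CPM against 3.12 CPM), and whether macrophage RNA in these droplets makes part of the difference was not tested. Summed over the 38 cells, H2-Aa was at 2291 CPM in glioma microglia and 94.7 CPM in control microglia (log2 ratio 4.60, 4.52 to 4.67), and H2-Oa at 10.9 CPM and 60.5 CPM (-2.38, -3.68 to -1.49). Of the 9 members 7 were at least 2-fold higher, where 17.9% of 13455 genes were, and 1 was lower, where 17.9% were. The 9 genes together had a log2 ratio of 3.82. With gate thresholds doubled 8 glioma microglia remained, and the ratio was 2.44.

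**Figure D3:**
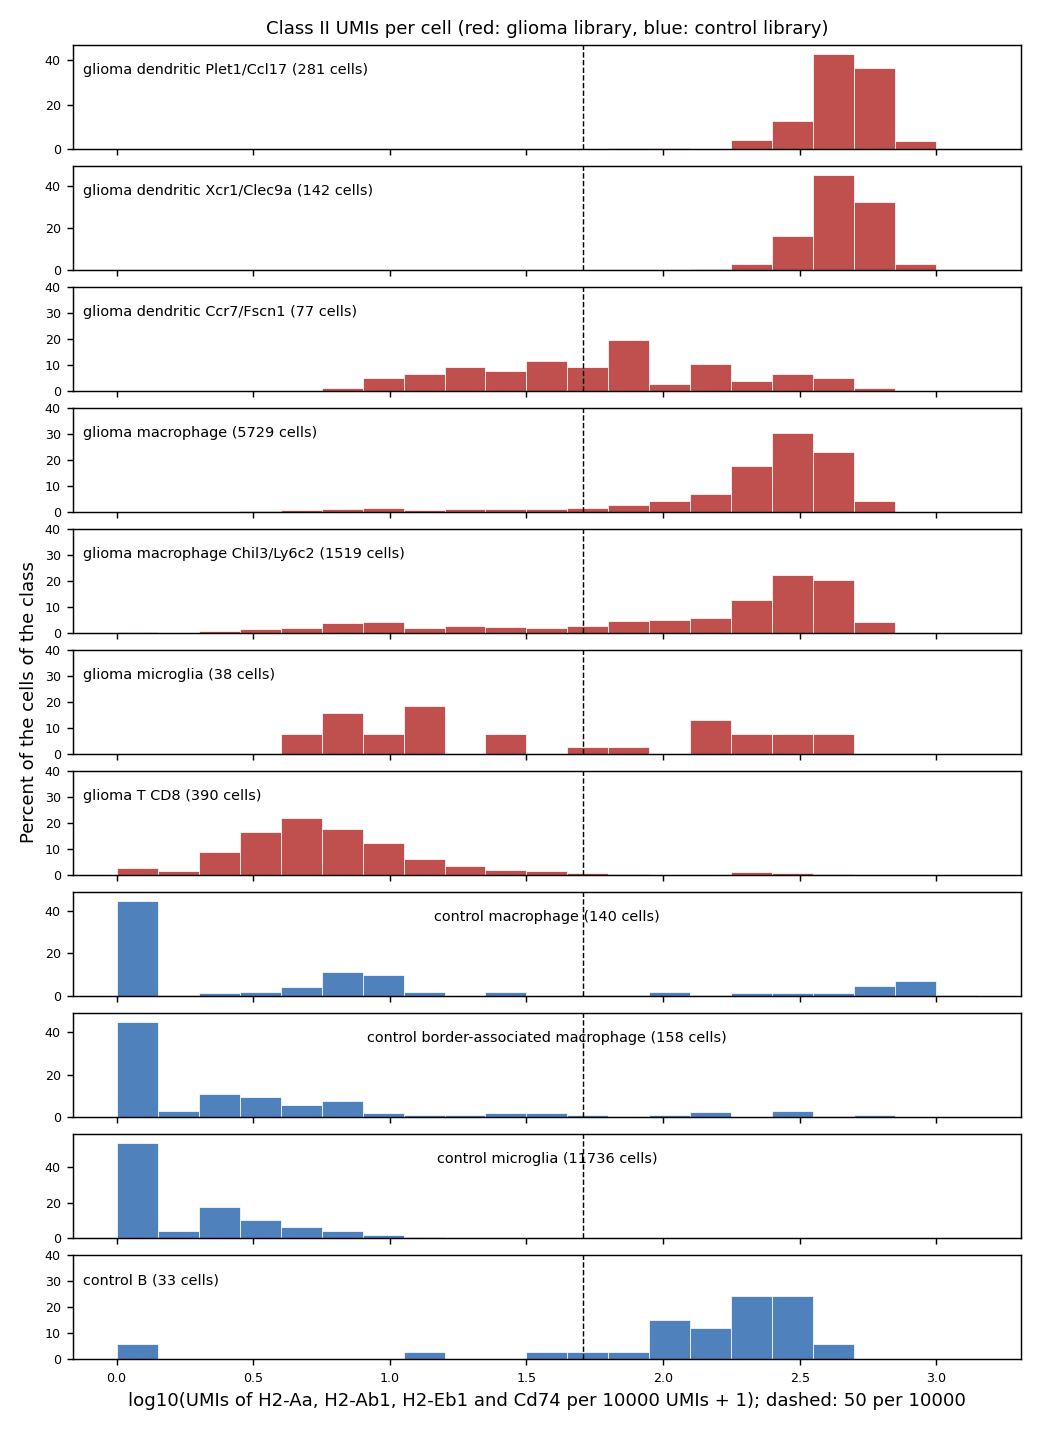
Histograms of the UMIs of H2-Aa, H2-Ab1, H2-Eb1 and Cd74 per 10000 UMIs of each cell, as log10(value + 1), in percent of the cells of a class; the dashed line is at 50 per 10000. All cells of the Plet1/Ccl17 and Xcr1/Clec9a dendritic states lie right of the line, 90.5% of glioma macrophages do, and 0.511% of control microglia do.

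Dendritic cells of the tumour exceeded glioma macrophages most in H2-Oa, H2-DMb2 and Ciita. H2-Aa differed little, at 7970 CPM in dendritic cells and 5120 CPM in macrophages (log2 ratio 0.64, 0.63 to 0.65), and Cd74 less still (0.56, 0.56 to 0.57). Ciita had a log2 ratio of 1.23 (1.14 to 1.33), H2-DMb2 of 2.41 (2.33 to 2.49) and H2-Oa of 4.03 (3.92 to 4.13). H2-Oa stood at 223 CPM in dendritic cells and 13.7 CPM in macrophages. The H2-DMa ratio was 0.26 and that of H2-DMb1 was -0.19, so the DM alpha chain and the beta chain H2-DMb1 were within 2-fold. The members at least 2-fold higher in dendritic cells were 3 of 9, where 9% of 12457 genes were, and none was 2-fold lower, where 16.2% were. No test was run behind that count of 0, since each class came from 1 library. With barcodes of several lineages kept, the ratio of Ciita fell to 0.93, under 2-fold. The H2-Oa ratio lay between 3.03 and 5.23 over the 8 other ways of processing.

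The 3 dendritic states differed among themselves. The Plet1/Ccl17 state and the Xcr1/Clec9a state, whose markers are those of conventional type 1 dendritic cells, had like levels of the chain genes: H2-Ab1 at 10966 CPM and 11298 CPM (log2 ratio -0.04, -0.06 to -0.02) and Ciita at 144 CPM and 141 CPM (0.03, -0.15 to 0.22). H2-Oa was higher in the Plet1/Ccl17 state, at 315 CPM against 142 CPM in the Xcr1/Clec9a state (1.14, 0.99 to 1.31), and so was H2-DMb2, at 335 CPM against 166 CPM (1.01, 0.86 to 1.16). H2-DMb1 was lower, at 468 CPM against 783 CPM (-0.74, -0.83 to -0.66). These were 2 members at least 2-fold higher, where 7.48% of genes were, and none was 2-fold lower, where 6.25% were; the 0 is a count of ratios with no test behind it. The H2-DMb2 ratio lies at that limit and was 0.99 with at most 5% mitochondrial UMIs and 0.97 with barcodes of several lineages kept. Thinned to 1000 UMIs before gating, the H2-Oa ratio was 0.16.

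The Ccr7/Fscn1 state, whose markers are those of mature migratory dendritic cells, was low in every member. Relative to the other dendritic cells of the tumour, 9 of 9 members were at least 2-fold lower, where 18.3% of 9523 genes were, and none was higher, where 13.9% were. Log2 ratios ran from -2.68 (H2-Ab1) to -1.67 (H2-Aa). H2-Ab1 stood at 1737 CPM in the Ccr7/Fscn1 state, against 10966 CPM in the Plet1/Ccl17 state. Ciita stood at 32.0 CPM there, a log2 ratio of -2.13 (-2.78 to -1.60) to the other dendritic cells. Only 41 of its 77 cells (53.2%, 41.5 to 64.7%) had 50 or more class II UMIs per 10000, against all 142 and all 281 cells of the other states, and 34 of the 77 lay between 25 and 100. The state also held fewer UMIs per cell, with a median of 9605, against 21224 in the Xcr1/Clec9a and 14782 in the Plet1/Ccl17 state. Barcodes past a macrophage or microglia gate were kept out of all 3 states. The 256 barcodes past a dendritic gate and a macrophage, microglia or border-associated macrophage gate were set aside, with 36586 CPM of the 9 genes. Barcodes past the Ccr7/Fscn1 gate that also passed a macrophage or microglia gate were not counted as dendritic and are not among the 256 unless they passed another dendritic gate.

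The beta chains of H2-DM were used in different proportion by different classes. H2-DMb2 had 0.716 UMIs (0.668 to 0.766) per UMI of H2-DMb1 in Plet1/Ccl17 dendritic cells, 0.487 (0.322 to 0.727) in the Ccr7/Fscn1 state and 0.213 (0.193 to 0.234) in the Xcr1/Clec9a state. In phagocytes it was 0.0731 (0.0707 to 0.0755) in glioma macrophages and 0.0567 (0.0521 to 0.0617) in control microglia. B cells were the only classes named here in which H2-DMb2 had more UMIs than H2-DMb1, with 2.57 per UMI (1.02 to 7.28) in glioma and 6.54 (3.63 to 12.8) in control. H2-DMb1 and H2-DMb2 are close paralogs, and reads that match both could be lost or misplaced, so the ratio is uncertain in size within a class.

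H2-Oa relative to H2-DMa, inhibitor to target, also varied by class. It was 0.84 (0.447 to 1.56) in glioma B cells, 0.368 (0.346 to 0.392) in Plet1/Ccl17 dendritic cells, 0.135 in Xcr1/Clec9a dendritic cells and 0.0189 (0.0178 to 0.0200) in glioma macrophages. In the control library it was 0.478 (0.274 to 0.811) in B cells, 0.247 (0.240 to 0.255) in microglia and 0.0508 (0.0267 to 0.0884) in macrophages. Control microglia thus lay between the Xcr1/Clec9a and Plet1/Ccl17 dendritic states, and macrophages of both libraries lay below them. H2-Ob, which encodes the beta chain of H2-O, stood at 75.8 CPM in Xcr1/Clec9a dendritic cells, 64.1 CPM in Plet1/Ccl17 dendritic cells, 389 CPM in glioma B cells and 5.08 CPM in glioma macrophages, against 23.7 CPM in control microglia.

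**Figure D4:**
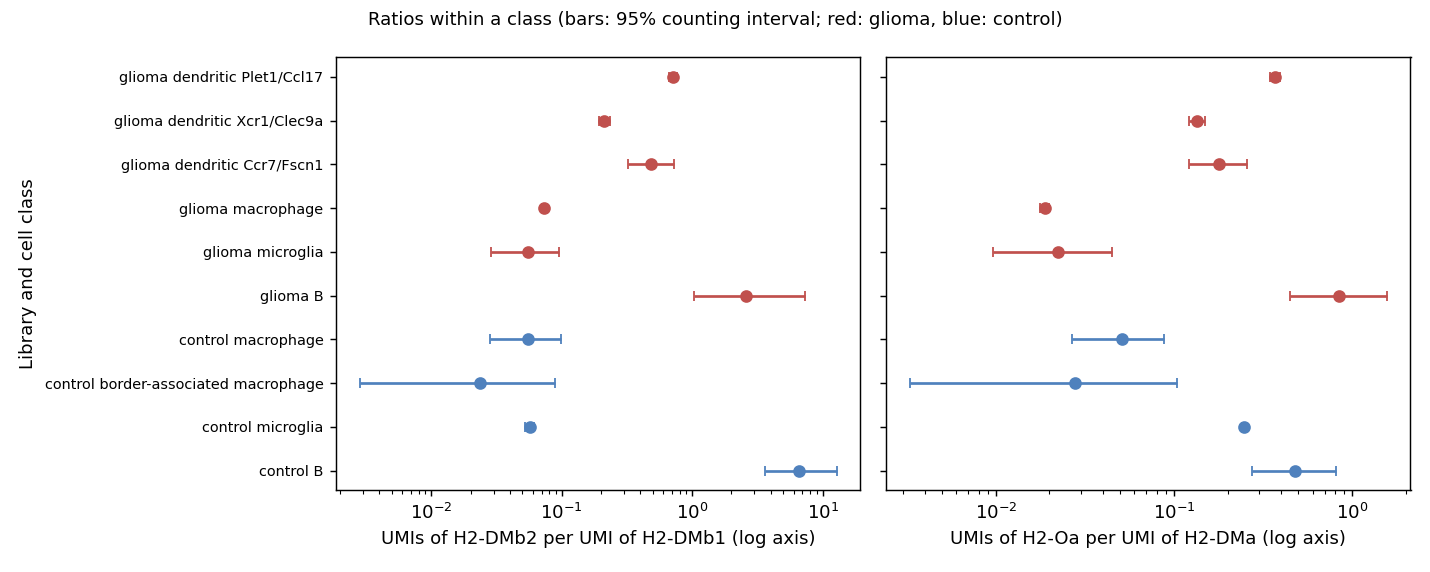
UMIs of H2-DMb2 per UMI of H2-DMb1 (left) and of H2-Oa per UMI of H2-DMa (right) in each class on log axes, with 95% counting intervals, glioma in red and control in blue. H2-Oa per H2-DMa is 0.0189 in glioma macrophages, below 0.247 in control microglia, while H2-DMb2 per H2-DMb1 is 0.0731 in glioma macrophages and 0.0567 in control microglia.

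Among glioma macrophages class II was widespread, and the states named by marker genes stayed within 2-fold of the other macrophages in the 9 genes summed. In 5183 of 5729 cells (90.5%, 89.7 to 91.2%) class II reached 50 UMIs per 10000, and 447 cells lay between 25 and 100. States overlap, since a cell can carry markers of several, and deep cells pass a state gate of 5 UMIs more easily. The 9 genes summed to 30990 CPM in the Cxcl9 state (2622 cells), a log2 ratio of 0.21 to the other glioma macrophages, and members ran from 0.14 (H2-Aa) to 0.52 (H2-DMb2). In the Arg1 state (1339 cells) all 9 were lower, from -0.79 (Ciita) to -0.28 (Cd74). In the 460, 196 and 404 cells that carried the Cxcl9, Arg1 or Chil3/Ly6c2 state alone the 9 genes summed to 35025, 21557 and 22284 CPM. The 183 cells of the Inhba/Nrg1 state alone had 35037 CPM, level with Cxcl9. Each other state alone lay between 24594 CPM (Top2a, Mki67, Pclaf and Birc5) and 30784 CPM (Nr4a2). No member reached 2-fold in the Cxcl9 or the Arg1 state, where 2.38% of genes were higher and 1.77% lower for Cxcl9, and 2.1% and 1.76% for Arg1. No test lies behind these counts of 0, and they did not hold with barcodes thinned to 1000 UMIs before gating, which left 8 Arg1 and 9 Cxcl9 cells. There the Arg1 ratio was -1.62 for H2-Aa, -1.26 for H2-Ab1, -2.09 for H2-Eb1 and -1.29 for the 9 genes, and the Cxcl9 ratio of H2-DMb1 was 1.03 (-0.13 to 1.89).

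Ciita and the chain genes separated in the Inhba/Nrg1 state. Ciita stood at 31.9 CPM there, a log2 ratio of -1.05 (-1.16 to -0.94) to the 66.1 CPM of other glioma macrophages, while H2-Aa stood at 5568 CPM and was 0.17 (0.17 to 0.18) above them. Glioma free RNA had 32.8 CPM of Ciita (23.8 to 44.0), level with that state. The free RNA share of the state, estimated from T-cell genes, was 2.55%, a low estimate. Over 7 other ways of processing the Ciita ratio lay between -1.14 and -0.97. Ciita was the 1 member of 9 at least 2-fold lower in any of the 9 macrophage states, where 3.22% of 12252 genes were in that state (0.955% were higher), and with barcodes of several lineages kept its ratio was -0.97. Thinned to 1000 UMIs, 2 Inhba/Nrg1 cells remained, in which H2-DMa had -1.27 and H2-DMb1 -1.26 with no lower bound, and 3 chain genes of the Arg1 state passed 2-fold as given above. In the 183 cells that carried the Inhba/Nrg1 state alone, Ciita had 34.1 CPM and H2-Aa 6817 CPM, against 94.6 CPM and 6008 CPM in the 460 cells that carried the Cxcl9 state alone. The 691 glioma macrophages without any state had 79.8 CPM of Ciita and 5988 CPM of H2-Aa.

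The other 6 macrophage states, for which no alternative was run, had no member past 2-fold in either direction. In the Chil3/Ly6c2 state (1519 cells), whose genes mark monocyte-like cells, members ran from -0.73 (H2-DMb2) to 0.13 (Ciita), where 2.53% of genes were higher and 5.29% lower. In the Mmp13/Vcam1 state (1861 cells) they ran from -0.49 (Ciita) to 0.09 (Cd74), where 4.07% were higher and 2.7% lower. In the interferon state (Rsad2, Ifit1 and Ifit2, 415 cells) 8 of 9 members had negative ratios, from -0.22 (Ciita) to -0.11 (Cd74), and H2-Oa had 0.37 (0.06 to 0.65), where 4.35% were higher and 2.62% lower. Ciita stood at 48.7 CPM in that state and 56.6 CPM in the other macrophages.

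In the cycling state (Top2a, Mki67, Pclaf and Birc5, 494 cells) the chain genes had ratios between -0.30 and -0.28 and H2-DMb2 had 0.32 (0.19 to 0.44), where 7.38% of genes were higher and 2.71% lower. In the Ccl8, Hes1 and Cx3cr1 state (663 cells) members ran from -0.26 (H2-Oa) to 0.19 (Ciita), where 4.41% were higher and 3.11% lower. In the Nr4a2 state (489 cells), named for the nuclear receptor in the title of the study, members ran from -0.13 (Ciita) to 0.22 (H2-Oa), where 1.67% were higher and 2% lower. The 9 genes summed to 29606 CPM in Nr4a2 macrophages and 29045 CPM in the others (log2 ratio 0.03, 0.02 to 0.03).

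**Figure D5:**
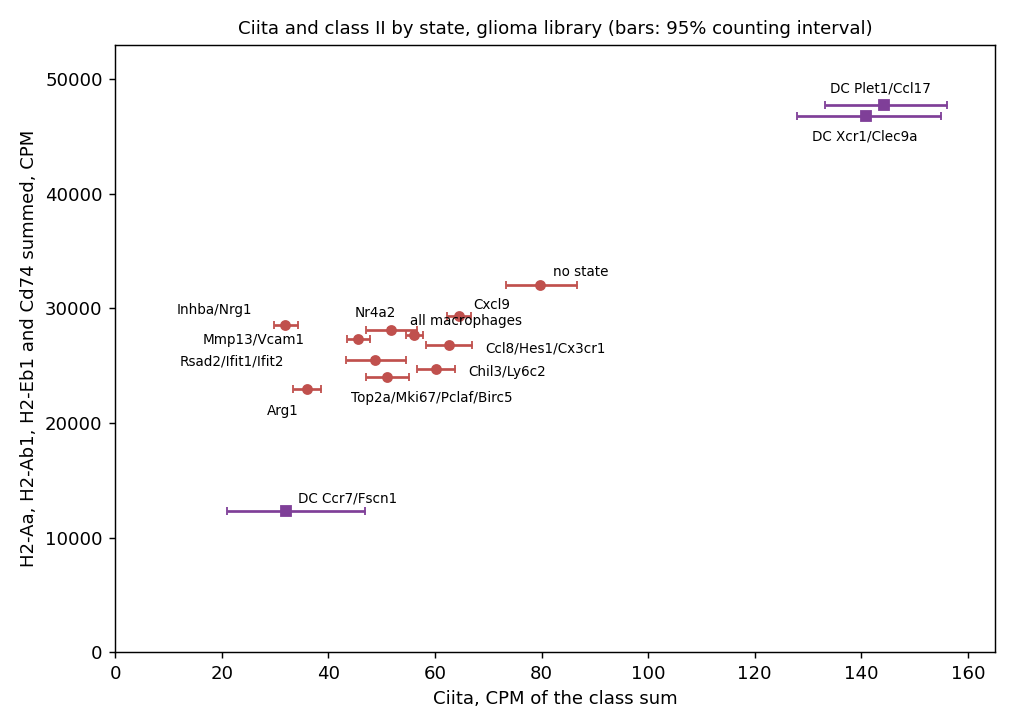
Ciita (x axis, CPM) against the sum of H2-Aa, H2-Ab1, H2-Eb1 and Cd74 (y axis, CPM) in the macrophage states (circles) and dendritic states (squares, DC) of the glioma library, with 95% counting intervals. The Inhba/Nrg1 state lies at 31.9 CPM of Ciita, the Ccr7/Fscn1 dendritic state at 32.0 CPM, and their class II sums differ. Glioma free RNA had 32.8 CPM of Ciita. The estimated free RNA share was 2.55% in the Inhba/Nrg1 and 1.54% in the Ccr7/Fscn1 state, both low estimates.

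The cells of lowest class II among glioma macrophages carried monocyte genes. In the 546 glioma macrophages under 50 class II UMIs per 10000, Chil3 stood at 3561 CPM and Ly6c2 at 416 CPM, against 250 and 96.7 CPM in the 5183 cells above that limit. H2-Aa was 261 CPM in the 546 cells and Ciita 14.1 CPM, against 5441 CPM and 58.8 CPM in the 5183. Within the Chil3/Ly6c2 state 77.0% of cells (74.8 to 79.1%) were above the limit, against 96.6% in the Cxcl9 state and 97.3% in the Mmp13/Vcam1 state. The lower quartile of the Chil3/Ly6c2 state was 62.6 class II UMIs per 10000 and its median was 237. The Chil3/Ly6c2 cells were shallower, with a median of 9710 UMIs per cell against 16915 in the Cxcl9 state, which the scale per 10000 UMIs takes into account for level but not for precision.

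Within glioma macrophages the cells with more Ciita had somewhat more class II. Thinned to 5000 UMIs, which left out 245 cells, the 4321 cells with 0 Ciita UMIs had a median of 134 class II UMIs, the 837 cells with 1 had 154, and the 326 cells with 2 or more had 160. The lowest decile moved more, with 22, 76 and 78.5 UMIs in that order. The same order was seen within the Arg1 state, with medians of 103, 147 and 149, within the Inhba/Nrg1 state, with 139.5, 164 and 181, and within the Cxcl9 state, with 145, 152 and 163. It was not seen within the Chil3/Ly6c2 state, with 111, 141 and 136. In dendritic cells the medians were 221.5, 225 and 231, but within the Xcr1/Clec9a state they were 238.5, 211 and 209 and within the Plet1/Ccl17 state 236, 230 and 251.5. Ciita is read in few cells at this depth (78.8% of the thinned macrophages had none), so a count of 0 does not mark a cell without it.

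Macrophages of the control library were close to glioma macrophages in sum but differed in spread. The 9 genes had a log2 ratio of 0.10 (0.08 to 0.12) for glioma over control macrophages. At least 50 class II UMIs per 10000 were found in 90.5% of glioma macrophages, against 30 of 140 control macrophages (21.4%, 15.0 to 29.2%), and those 30 held 99.0% of the class II UMIs of their class. H2-Aa stood at 11831 CPM in the 30 cells and 20.3 CPM in the other 110. Ciita had a log2 ratio of 1.07 (0.40 to 1.96) and H2-DMb2 of 1.09 (0.34 to 2.10), and they were the 2 members at least 2-fold higher, where 12% of genes were. None was lower, where 25.2% were, and H2-Oa had -0.76 (-1.49 to 0.21). The median glioma macrophage had 13610 UMIs in all, against 1866 in control macrophages. The macrophage gate allowed at most 2 UMIs of the microglia marker genes. Those genes summed to 350 CPM in control macrophages, 6384 CPM in control microglia and 21.9 CPM in glioma macrophages. Whether shallow microglia make up part of the control macrophages was not tested.

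B cells had class II in both libraries. All 25 glioma B cells and 29 of 33 control B cells (87.9%, 71.8 to 96.6%) were above 50 class II UMIs per 10000. H2-Aa stood at 3009 CPM in glioma and 2924 CPM in control B cells (log2 ratio 0.04, -0.18 to 0.26), and Ciita at 55.5 CPM and 108 CPM (-0.87, -2.76 to 0.53). Free RNA had 2813 CPM of H2-Aa in the glioma library and 143 CPM in the control library. H2-DMb2 was the 1 member at least 2-fold lower in glioma B cells, at 199.9 CPM against 541 CPM in control (-1.41, -2.26 to -0.69), where 18.1% of 1648 genes were, and none was higher, where 6.01% were; no test lies behind that 0.

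Class II RNA was also read in T cells, neutrophils and free RNA of the glioma library. Barcodes of 10 to 100 UMIs, taken as free RNA, had 2813 CPM of H2-Aa in the glioma library and 143 CPM in the control library. H2-Aa stood at 382 CPM in glioma T cells and 10.1 CPM in control T cells, and at 65.3 CPM in the glioma keratin and Rhox5 class. A few barcodes held most of it: 68 of 1362 glioma T cells (4.99%, 3.90 to 6.29%) were above 50 class II UMIs per 10000 and held 70.2% of the class II UMIs of the class, while the median T cell had 4 such UMIs. In Foxp3 T cells 17 of 142 were above 50 (7.13 to 18.5%), and so were 18 of 337 neutrophils (5.34%, 3.20 to 8.31%), which held 62.4% of the class II UMIs of their class. Whether these droplets hold a second cell was not tested.

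The proportion of the genes in T cells was that of macrophages for some pairs and not for others. Cd74 per H2-Aa was 2.22 (2.15 to 2.30) in glioma T cells and 2.19 in neutrophils, against 2.26 (2.25 to 2.27) in glioma macrophages. H2-Oa per H2-DMa was 0.331 (0.286 to 0.382) in glioma T cells, against 0.0189 in glioma macrophages. H2-Oa itself had 19.4 CPM in glioma T cells and 27.0 CPM in control T cells, on 8 UMIs, against 19.4 CPM in glioma free RNA. Of 9 members 6 were at least 2-fold higher in glioma than in control T cells, where 13.3% of genes were, and none was lower, where 15.8% were. In neutrophils 7 of the 7 members with enough UMIs were higher, where 30.1% of genes were, and none was lower, where 10.7% were. H2-Aa, H2-Ab1 and H2-Eb1 of T cells and neutrophils were below glioma free RNA (2813, 3232 and 2523 CPM). A level below that of free RNA does not show where the RNA came from. The source was not tested, and the ratios of T cells and neutrophils are not read as expression by those cells. The same 3 genes were below free RNA in glioma microglia (2291, 2557 and 2132 CPM) and in the Ccr7/Fscn1 state (2689, 1737 and 2520 CPM), while Cd74 was above it, at 6637 and 5361 CPM against 4878 CPM. In glioma B cells H2-Ab1 (2065 CPM) and H2-Eb1 (1732 CPM) were below free RNA as well, and H2-Aa (3009 CPM) was above it. The free RNA share, estimated from T-cell genes, was 0.571% in glioma microglia and 1.54% in the Ccr7/Fscn1 state, both low estimates. For glioma B cells it was not estimated. In control microglia H2-Aa, H2-Ab1, H2-Eb1 and Cd74 (94.7, 94.5, 82.1 and 325 CPM) were below control free RNA (143, 106, 106 and 344 CPM). The interval of the free RNA held the microglia value for each of these genes but H2-Aa (106 to 188). The estimated free RNA share of control microglia was 6.26%, a low estimate. In glioma macrophages and in the Plet1/Ccl17 and Xcr1/Clec9a dendritic states H2-Aa was above the level of glioma free RNA. H2-Oa in glioma macrophages (13.7 CPM) was below free RNA, at 19.4 CPM, and H2-DMb2 (45.7 CPM) was near it, at 42.5 CPM. Ciita had 32.8 CPM (23.8 to 44.0) in glioma free RNA. That interval held the Inhba/Nrg1 (31.9 CPM), Arg1 (36.0 CPM) and Ccr7/Fscn1 (32.0 CPM) states, while all glioma macrophages had 56.1 CPM. The estimated free RNA shares of those states were 2.55%, 3.34% and 1.54% in that order, all low estimates.

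Other genes of the pathway were taken as a list of 31, all of them counted. In glioma macrophages relative to control microglia 10 were at least 2-fold higher, where 16.1% of all genes were, and 9 at least 2-fold lower, where 33.6% were, with a median log2 ratio of -0.41 against -0.39 over all genes. Among the largest in either direction were Lag3 (-6.45), Cd40 (4.47), Il10 (3.97), Ctsd (-3.80), Cd4 (3.55), Socs1 (3.41), Cd80 (2.77), Ifng (2.55, on 55 UMIs in macrophages and 9 in microglia) and H2-Ob (-2.22). Socs1, which restrains interferon gamma signalling, stood at 63.1 CPM in glioma macrophages and 5.92 CPM in control microglia, and the costimulatory Cd40 at 33.8 CPM and 1.52 CPM in the same order. Ctsd, a lysosomal protease, was on the other side, at 611 CPM in glioma macrophages and 8528 CPM in control microglia. Rfx5, a subunit of the X-box factor on which Ciita docks, is named after its values were seen: it stood at 4.27 CPM in glioma macrophages and 12.7 CPM in control microglia (-1.57, -1.75 to -1.40). The other subunits lay within 2-fold, with Rfxap at 37.7 CPM in glioma macrophages and 23.4 CPM in control microglia (0.69, 0.61 to 0.77) and Rfxank at 6.43 CPM and 11.1 CPM (-0.79, -0.94 to -0.64).

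In dendritic cells relative to glioma macrophages 3 of the 31 were at least 2-fold higher, where 9% of all genes were, led by H2-Ob (3.63) and H2-Eb2 (3.25, on 20 and 22 UMIs), and 9 were lower, where 16.2% were. Those lower included Ctsd (-3.96), Ctsl (-3.82), Lgmn (-3.53), Ctsb (-2.68) and Ctss (-1.45), together with Prdm1 (-1.77), Cd4 (-1.51) and, on 1 UMI, Ifng (-1.82). Ctss, which encodes cathepsin S, stood at 863 CPM in dendritic cells and 2359 CPM in macrophages, while Cd74, whose protein it cleaves, was higher in dendritic cells. Ifng, the inducer of Ciita, was highest in CD4 Foxp3- T cells of the tumour, at 779 CPM, with 144 CPM in NK cells, 34.1 CPM in CD8 T cells and 30.1 CPM in Foxp3 T cells. Receptors of class II on T cells were Cd4, at 454 CPM in CD4 Foxp3- T cells and 158 CPM in Foxp3 T cells, and Lag3, at 281 and 199 CPM in the same classes. Lag3 was also read in microglia, at 164 CPM in glioma and 466 CPM in control.

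Across the 15 separate classes of at least 50 cells, the genes whose level ran most closely with the chain genes and Cd74 were Scimp (Pearson r = 0.955), Dna2 (0.944), Slamf7 (0.928), Phf11a (0.923), Ero1lb (0.907) and Plbd1 (0.906), followed by Csf2rb, Ahr, Gm6377 and Naaa (0.896 to 0.879). Ciita itself had 0.945 and the H2-DM genes 0.906 to 0.915, while H2-Oa had 0.687. With Ciita as the pattern, Plbd1 (0.969), Scimp (0.944), Itgax (0.939) and Napsa (0.933) led, and Dcstamp, Ifi205, Mmp12, Dna2, Aldh1b1 and Gpr141 followed (0.923 to 0.902). The classes share 2 libraries, their depth and their free RNA, and 11834 genes were ranked, so these values describe these classes alone.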

How the data were processed

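The authors deposited raw counts, the UMIs of each gene at each droplet barcode, in 1 matrix per group. Cell Ranger 3.0.2, STAR and Seurat 3 are listed in the submitters' processing notes, as are the builds GRCh38 and mm10; all genes were mouse. Barcodes with at least 1000 UMIs and at most 10% mitochondrial UMIs were kept. Classes were gated on summed marker UMIs. Gate thresholds were set after gate sizes and class II UMIs of provisional gates had been seen, and the members and lists were chosen with earlier results of these data known. No doublet caller was run. Barcodes that passed gates of several lineages were set aside (818 glioma, 474 control). CPM is the class sum per 1000000 UMIs, log2 ratios add 0.5 UMIs to each sum, and a gene was counted in a comparison with at least 20 UMIs over both sums, 2-fold being the limit for a difference. Intervals are exact (Poisson, Clopper-Pearson, conditional binomial). Total UMIs were 159689787 (glioma) and 124023146 (control). The scripts were tested on simulated sums and used Python 3.11.15, numpy 2.4.6 and scipy 1.17.1. Alternatives were 2000 UMIs, a 5% mitochondrial limit, mixed barcodes kept, doubled gates, means over cells, free RNA subtracted, thinning to 1000 UMIs and, added after seeing the data, leaving out shared barcodes. Named genes were the members in each class of at least 30 cells (glioma B cells were added after their values were seen), the listed pathway genes past 2-fold (largest first, at most 10) and the 10 genes most alike. Ifi30 and H2-Ea were not analysed here, and a listed pathway gene is counted but not reported by name.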

Additional observations from a re-analysis of the deposited data

Results flagged for a closer look

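Glioma barcodes that passed no gate (1774 cells) carried 26551 CPM of the 9 genes, against 9338 CPM in the 445 control barcodes of the same kind, and these cells enter no comparison above. Barcodes set aside for gates of several lineages carried 26315 CPM in the glioma library (818 cells), against 8928 CPM in the control library (474 cells). Both were marked because class II was above the control level in data outside the comparisons.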

How the results depend on the processing

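No paired analysis was possible because each group is 1 pooled library. Over 90 log2 ratios and 8 alternatives, 441 of 699 values stayed within the counting interval of the reported value, which is narrow for large sums. Of 333 values of ratios at or past 2-fold, 330 kept their direction and 322 stayed past 2-fold. The 3 that reversed were H2-DMb1 (-0.13) and H2-DMb2 (-1.04) in glioma over control microglia with doubled gates, where 8 glioma cells remained, and H2-DMb2 (-0.36) in control microglia over border-associated macrophages with thinning.

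For glioma macrophages over control microglia (4.82), the 9 genes gave 4.81 with 2000 UMIs, 4.78 with a 5% mitochondrial limit, 4.21 with mixed barcodes kept, 4.90 with doubled gates, 5.21 as a mean over cells, 4.83 with free RNA subtracted and 5.51 with thinning. Ciita (5.45) gave 4.80 with mixed barcodes kept and 5.97 as a mean over cells. Glioma over control microglia (3.82) gave 3.52 with a 5% mitochondrial limit, 3.16 with mixed barcodes kept, 2.44 with doubled gates and 3.88 as a mean over cells, and no value with thinning. Dendritic cells over macrophages (0.66) gave 0.63 with a 5% mitochondrial limit, 0.45 with mixed barcodes kept, 0.65 with doubled gates, 0.61 as a mean over cells, 0.66 with free RNA subtracted and 0.70 with thinning. The Cxcl9 state over other macrophages (0.21) gave 0.24 with a 5% mitochondrial limit or mixed barcodes kept, 0.18 with doubled gates, 0.26 as a mean over cells and 0.17 with thinning. Leaving out shared barcodes moved none of these 5 results outside its interval. The causes were not tested.

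The free RNA share, estimated from T-cell genes in glioma and erythroid genes in control, was 2.98% in glioma macrophages and 6.26% in control microglia, and is a low estimate because the gates remove barcodes rich in these genes. Depth limits the genes of fewest UMIs, which in glioma macrophages were H2-Oa, H2-DMb2 and Ciita (1158, 3864 and 4743 UMIs). The 25 glioma B cells and 38 glioma microglia limit their classes. Differences between mice could not be measured.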
